A study of Mus musculus with 12 samples.

Results

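The collagen genes are the genes for the chains of collagen, the protein of fibrils, basement membranes and filaments around cells. They were taken as every gene of the deposited table whose symbol is Col, a number, the letter a and a number, which gave 42 of 27825 genes. Of the 42, 40 had a mean of at least 10 normalized counts over all libraries and were tested, and Col9a2 and Col11a2 did not pass that filter. Col2a1 and Col10a1 were not analysed here. The libraries are bulk RNA-seq of endothelial cells, the lining cells of blood and lymph vessels, sorted by a yellow fluorescent protein. The mice were male, with genotype ROSA26-eYFP+/+ Cdh5-CreERT2+, in which tamoxifen activates a Cre recombinase driven by the endothelial gene Cdh5. All groups received tamoxifen in their food for 2 weeks from 6 weeks of age. From 8 weeks of age they were fed normal chow (NC, 5.8% fat) or a high fat diet (HFD, 60% fat) for 12 to 13 weeks.

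The 4 groups of 3 libraries (A, B and C) were mesentery on chow, mesentery on the high fat diet, epididymal fat on chow and epididymal fat on high fat diet. The mesentery is the sheet of tissue through which vessels reach the gut, and the epididymal pad is a fat depot beside the testis. Each library pooled tissue of 6 mice, digested with actinomycin D, a blocker of transcription, before sorting. The labels speak of 2 independent replicates and number the libraries 50 to 53, 87 and 88, both tissues using the same numbers. How these numbers relate to the pools of mice is not stated. The n = 3 thus counts libraries, and p-values measure only the spread between them. The comparisons asked how collagen transcripts differed between the 2 vascular beds on each diet, what the diet did in each bed, and whether that effect differed between beds.

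Collagen chains wind into a triple helix, which needs glycine at regular steps along the chain, the Gly-X-Y repeat. Fibrillar collagens form the fibres that carry tension and come mainly from fibroblasts and other mesenchymal cells. Type IV collagens form the network of the basement membrane, on which endothelial cells sit and which endothelial cells make themselves. Multiplexins lie at the junction of basement membrane and matrix, beaded filament collagens (type VI) form fine filaments near cells, and transmembrane collagens stay anchored in the cell membrane.

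The coding sequences show that family feature and where it stops. The sequences below are shown because they carry the difference between a fibrillar, a network and a transmembrane chain, and because these 3 genes are among those the results turn on. They are the 27 codons around the end of the longest unbroken run of glycine triplets, read 5′ to 3′ from the GENCODE M21 transcripts (GRCm38). Capitals mark the glycine codons (GGN) of the run.
Col3a1, codons 1178 to 1204: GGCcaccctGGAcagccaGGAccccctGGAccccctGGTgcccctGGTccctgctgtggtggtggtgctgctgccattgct
Col4a1, codons 1335 to 1361: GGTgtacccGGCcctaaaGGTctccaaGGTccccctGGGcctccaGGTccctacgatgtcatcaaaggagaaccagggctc
Col13a1, codons 582 to 608: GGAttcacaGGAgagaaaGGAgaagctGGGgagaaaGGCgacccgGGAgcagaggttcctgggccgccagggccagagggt
In Col3a1, a fibrillar chain of 1464 codons, the longest run held 344 triplets. In Col4a1, a network chain of 1669 codons, the longest run held 40 triplets and there were 22 separate runs of at least 5 triplets. Col13a1 had a longest run of 44 triplets. Among these 3 genes the long uninterrupted run belonged to the fibrillar chain, and the network and transmembrane chains were broken into short runs.

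Totals of reads assigned to genes ranged from 8348897 to 25397963 per library. Collagen genes took between 0.115% and 0.180% of them. Mitochondrial genes took 5.67% to 20.6% in the mesentery libraries, highest in replicate A on chow, and 2.50% to 5.94% in the epididymal ones. The part of this difference in the tissue results was not tested. All 12 endothelial markers examined were measured in every group, with sums of 113108 to 171386 normalized counts in the mesentery libraries and 46699 to 103210 in the epididymal ones. Markers of other cells were present too: the 10 fibroblast markers summed to 4674 to 10438 in mesentery and 18992 to 59712 in epididymal fat. The 8 pancreatic acinar markers summed to 22797 to 162292 in mesentery and 0.869 to 83.2 in epididymal fat. Receptor genes of the nose, read as background, took 1941 and 2082 CPM (counts scaled to a fixed library total) in the epididymal libraries numbered 87 and 88, 99.7 to 186 in the other epididymal libraries and 253 to 3065 in mesentery.

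**Figure D1:**
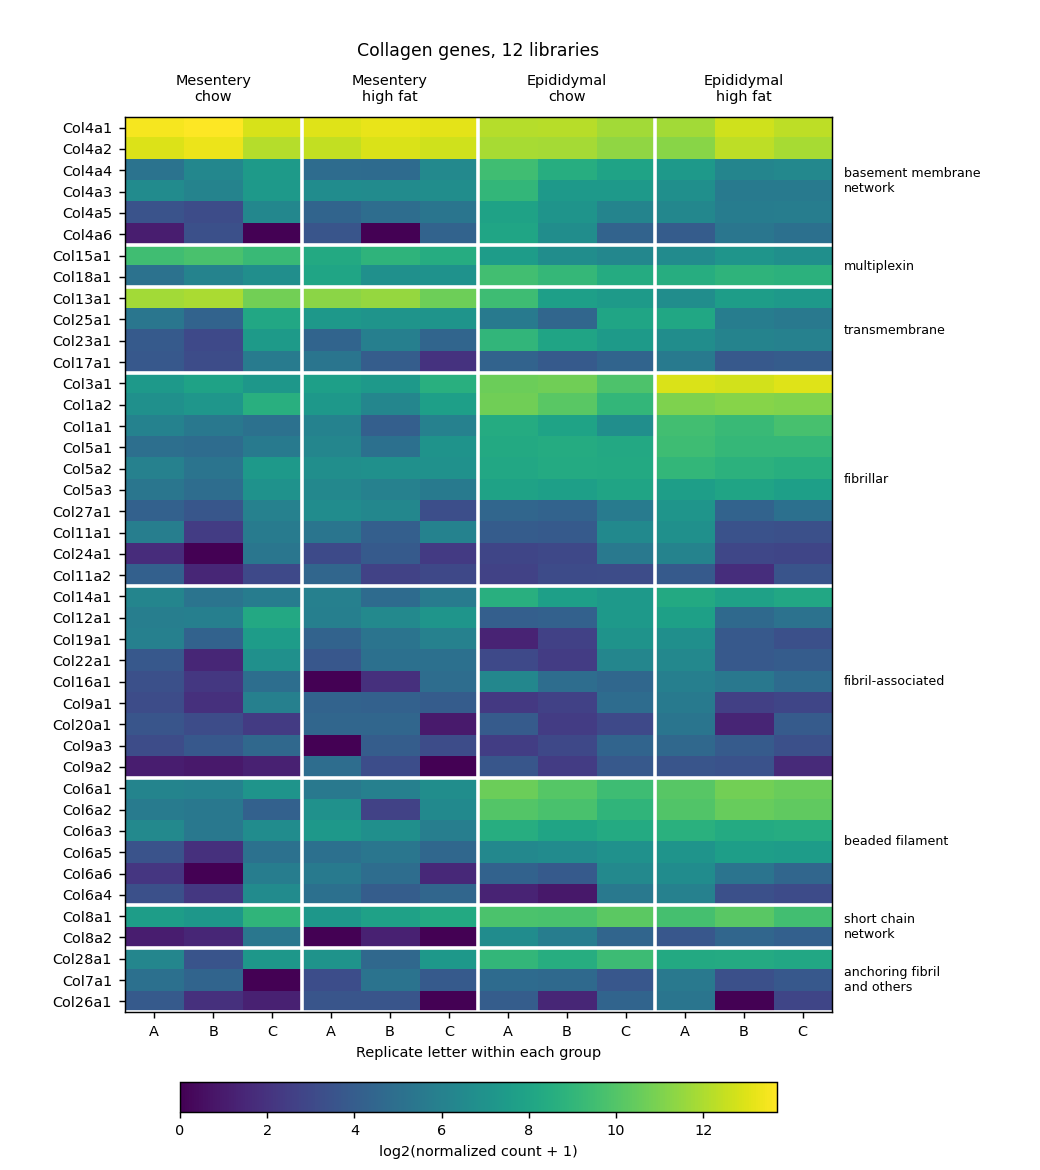
Log2(normalized count + 1) of all 42 collagen genes (rows, grouped by role) in the 12 libraries (columns, replicate letters within the 4 groups). Col4a1 and Col4a2 are bright throughout, Col13a1 and Col15a1 are brighter in mesentery, and Col3a1 is brightest in epididymal fat on high fat diet.

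The make-up of collagen transcripts differed between the beds. Per kilobase of exon, basement membrane chains made up 65.6% to 75.9% of the collagen signal in the mesentery libraries, 44.8% to 51.2% in epididymal fat on chow and 29.5% to 43.5% in epididymal fat on high fat diet. Fibrillar chains made up 1.24% to 4.06% in mesentery, 13.8% to 16.3% in epididymal fat on chow and 29.5% to 41.5% there on the high fat diet. These ranges did not overlap between mesentery and epididymal fat, and in epididymal fat they did not overlap between diets. Type VI chains made up 13.6% to 17.3% in epididymal fat and 0.560% to 2.34% in mesentery. Transmembrane chains, which in mesentery were mostly Col13a1, made up 12.4% to 20.3% in mesentery and 1.56% to 8.09% in epididymal fat. These shares are a description of the libraries and were not tested.

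The order of levels differed as well. In mesentery the 4 highest genes per kilobase were Col4a1, Col4a2, Col13a1 and Col15a1 on both diets. Their means on chow were 1430, 1134, 671 and 115 normalized counts per kilobase. The fifth, Col8a1, had a mean of 35.4. In epididymal fat on chow Col4a1 and Col4a2 were followed by Col6a1 and Col3a1, at 257 and 140 normalized counts per kilobase. In epididymal fat on high fat diet Col3a1 stood first, at 772 ± 60.7 (SD, n = 3), beside Col4a1 at 684 ± 209 and Col4a2 at 569 ± 199. The spread of these 3 levels overlapped.

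**Figure D2:**
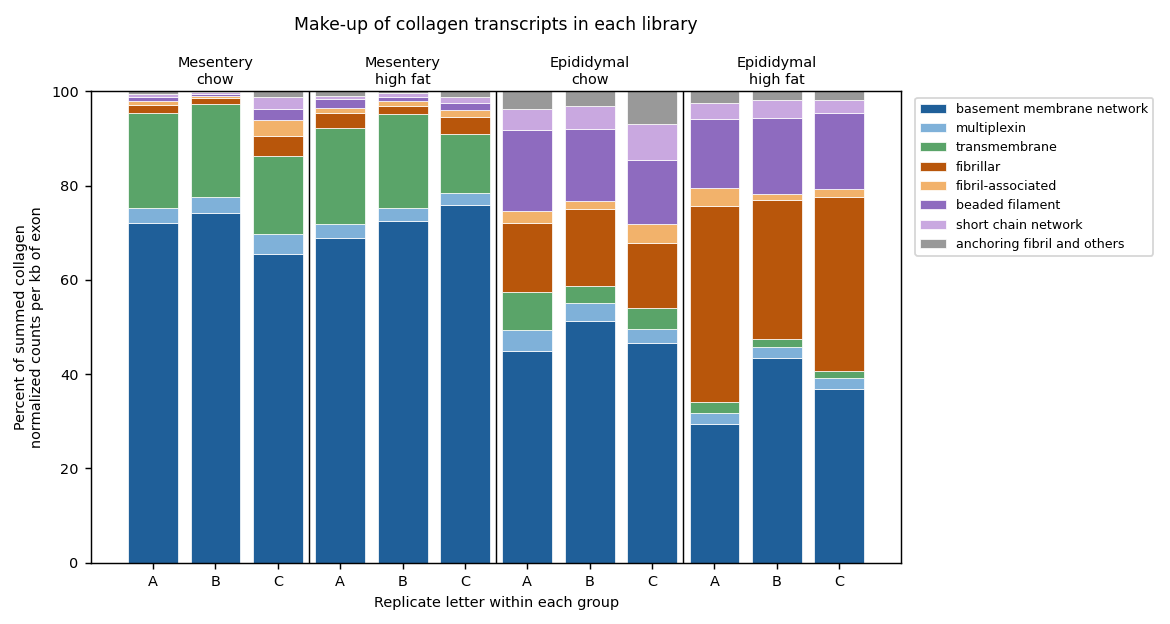
Share of each collagen role in the summed collagen signal per kilobase of exon (vertical axis, percent) in each of the 12 libraries (bars). The basement membrane share is at least 65.6% in every mesentery library, and the fibrillar share is at least 29.5% in every epididymal library on the high fat diet.

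On chow, epididymal and mesenteric libraries differed in 22 of the 40 collagen genes, 18 higher and 4 lower in epididymal fat. Fibrillar and type VI chains and Col18a1 were higher there, and Col13a1, Col15a1, Col4a1 and Col4a2 were lower. Among all 22238 genes tested, 12.8% passed, 7.32% higher and 5.47% lower in epididymal fat. The test was limma on log2(normalized count + 1) with Benjamini-Hochberg adjustment over all genes and a threshold of 0.05. The median log2 change was 1.88 over the 40 collagen genes and -0.08 over all genes tested. In 21 of the 40 the groups did not overlap, 17 higher and 4 lower, against 28.7% of all genes tested (16.0% higher and 12.7% lower). Log2 changes are epididymal minus mesentery on that scale, where the added 1 makes the change of low genes smaller than it is.

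Among the basement membrane chains, Col4a1 and Col4a2 form the network of nearly all basement membranes. Col4a1 had 11342, 13144 and 7531 normalized counts in mesentery on chow and 4608, 4789 and 3564 in epididymal fat on chow (log2 change -1.28, SE 0.26, adjusted p 0.00589). Col4a2 had 7929, 9982 and 4598 and 3749.8, 3705 and 2737 (log2 change -1.09, SE 0.31, adjusted p 0.0331). Every mesentery library was above every epididymal one for both genes, replicate C being the lowest of its group each time. The ratio of Col4a1 to Col4a2 stayed between 1.23 and 1.64 in all 12 libraries. The other chains of type IV collagen, found in specialised basement membranes such as that of the kidney filter, had higher means in epididymal fat. Col4a4 had 36.4, 78.8 and 173 in mesentery and 705, 364 and 248 in epididymal fat (log2 change 2.32, SE 0.62, adjusted p 0.0253). Col4a6 had 1.14, 8.96 and 0 and 262, 105 and 19.4 (log2 change 4.90, SE 1.33, adjusted p 0.028), 2 of its mesentery values being under 3 reads. Col4a5 also passed (log2 change 2.71, adjusted p 0.0321), although its groups overlapped, and Col4a3 did not pass (log2 change 1.21, adjusted p 0.138). Epididymal replicate A held the highest value of Col4a3, Col4a4, Col4a5 and Col4a6.

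The multiplexins Col15a1 and Col18a1, whose C-terminal fragments are the angiogenesis inhibitors restin and endostatin, differed in opposite directions. Col15a1 had 722, 863 and 614 normalized counts in mesentery and 189.5, 103 and 78.6 in epididymal fat (log2 change -2.64, SE 0.31, adjusted p 1.24e-04). Col18a1 had 34.2, 69.0 and 107 and 755, 559.5 and 336 (log2 change 3.02, SE 0.43, adjusted p 5.44e-04). Neither gene's groups overlapped. The ratio of Col15a1 to Col18a1 was 21.1, 12.5 and 5.74 in mesentery and 0.251, 0.183 and 0.234 in epididymal fat (ratio chosen after its values were seen).

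Col13a1, a transmembrane collagen found at cell adhesions and at the neuromuscular junction, had 3508, 4006 and 1757 normalized counts in mesentery on chow. In epididymal fat it had 695, 209 and 173 (log2 change -3.31, SE 0.47, adjusted p 5.58e-04). All mesentery libraries were above all epididymal libraries, and epididymal replicate A was the highest of its group. Relative to the summed endothelial markers, Col13a1 was 0.0214, 0.0234 and 0.0148 in mesentery and 0.00767, 0.00202 and 0.00203 in epididymal fat, still without overlap. Col23a1, another transmembrane collagen, went the other way (log2 change 3.37, SE 0.91, adjusted p 0.0269), with 13.7, 7.17 and 175 in mesentery and 513, 255 and 175 in epididymal fat. The value of its mesentery replicate C equalled that of epididymal replicate C to 3 digits.

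All 6 fibrillar genes of the types I, III and V were higher in epididymal fat. Type I collagen, the main collagen of fibrous tissue, is built from Col1a1 and Col1a2. Col1a1 had 67.2, 43.0 and 33.8 normalized counts in mesentery and 335, 246 and 108 in epididymal fat (log2 change 2.15, SE 0.53, adjusted p 0.0165). Col1a2 had 115, 147 and 393 and 1669, 1157 and 533 (log2 change 2.42, SE 0.49, adjusted p 0.00556). Replicate C was the lowest epididymal library for both, and for Col1a2 it was also the highest mesentery library. Col3a1, the chain of the thin fibrils of vessel walls and soft organs, had 167, 232 and 149 and 1541, 1654 and 929 (log2 change 2.88, SE 0.31, adjusted p 6.27e-05). Its groups lay far apart. The type V chains, which start and size type I fibrils, also passed: Col5a1 by 3.18, Col5a2 by 2.07 and Col5a3 by 2.13 on the log2 scale. Col5a1 had 30.7, 27.8 and 47.9 in mesentery and 312, 346 and 305 in epididymal fat. Of the other fibrillar genes tested, Col11a1, Col24a1 and Col27a1, none passed.

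The type VI chains Col6a1, Col6a2 and Col6a3 assemble together into beaded filaments and are abundant in adipose matrix. Col6a1 had 70.6, 67.2 and 135 normalized counts in mesentery and 1585, 1090.3 and 702 in epididymal fat (log2 change 3.61, SE 0.38, adjusted p 4.91e-05). Col6a2 had 50.1, 43.0 and 18.3 and 1033, 861 and 499 (log2 change 4.44, SE 0.82, adjusted p 0.00328). These are differences of 12.2 and 21.7 times, and neither gene's groups overlapped. Col6a3 (log2 change 2.11, SE 0.39, adjusted p 0.0032) and Col6a5 (log2 change 3.15, SE 0.67, adjusted p 0.00783) were also higher in epididymal fat, and Col6a4 and Col6a6 did not pass. Among the remaining roles, Col8a1, a short chain collagen made in vessel walls, had 197, 149 and 487 in mesentery and 888, 876 and 1189.8 in epididymal fat (log2 change 2.00, SE 0.39, adjusted p 0.00429). Col14a1, which binds to the surface of fibrils, was higher by 2.16 (adjusted p 0.00428), and Col28a1 by 3.29 (adjusted p 0.0171). Col14a1 was the only one of 8 fibril-associated genes tested that passed.

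**Figure D3:**
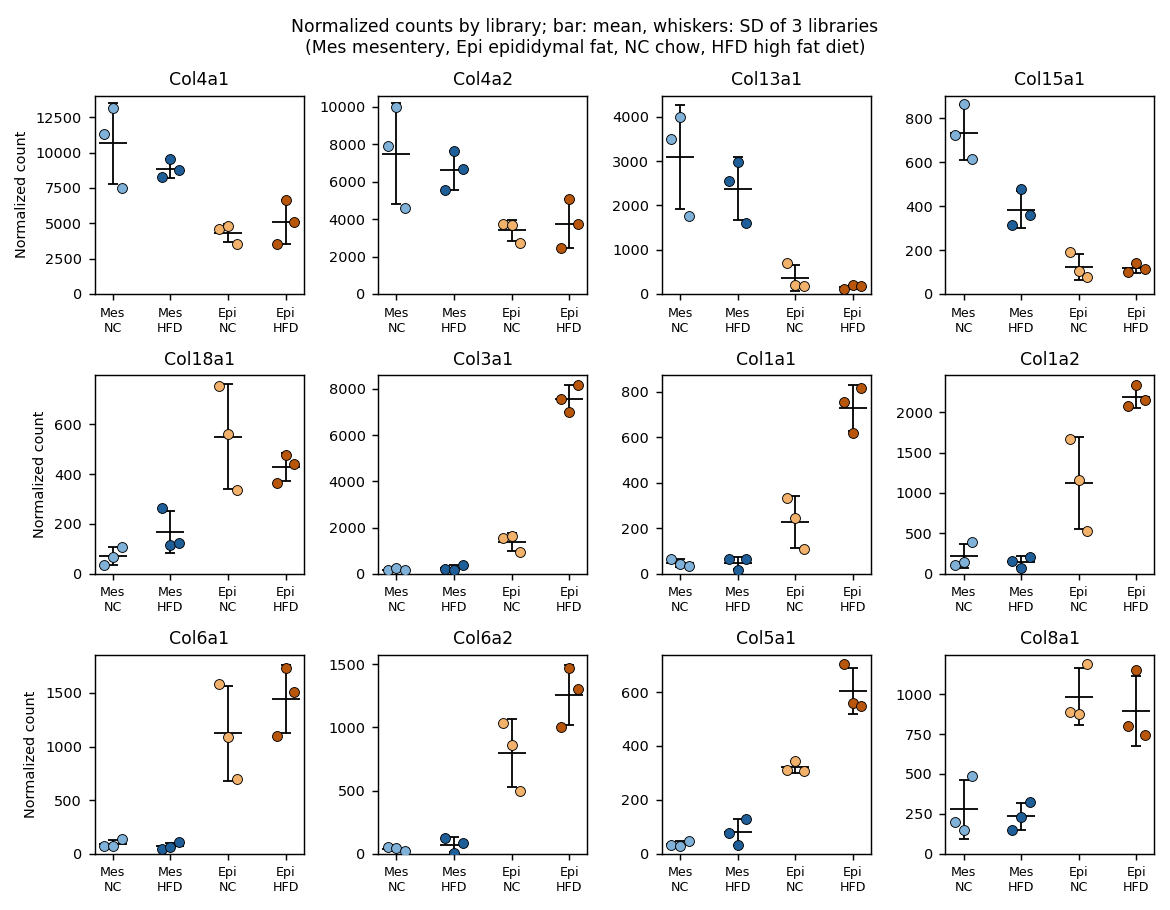
Normalized counts (vertical axes, linear and starting at 0) of 12 collagen genes in each library, with the mean (bar) and SD (whiskers) of 3 libraries per group. Col4a1, Col4a2, Col13a1 and Col15a1 are higher in mesentery, the other 8 genes are higher in epididymal fat, and Col3a1 stands at 6989.8 or more in the 3 epididymal libraries on the high fat diet.

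Markers of other cells moved with this comparison. Of 10 fibroblast markers 7 passed, all higher in epididymal fat, with sums of 6887 to 10428 normalized counts in mesentery and 18992 to 58449 in epididymal fat. Of 12 endothelial markers 6 were lower and 1 higher in epididymal fat. Of 10 mural markers 8 passed, all higher, with sums of 1467 to 1729 and 14230 to 24017. Lymphatic endothelial markers summed to 1332 to 13032 in mesentery and 22667 to 37637 in epididymal fat, and adipocyte markers to 4853 to 7244 and 64204 to 86838. Of 10 macrophage markers 5 passed, all higher, with sums of 613 to 3113 in mesentery and 2780 to 19644 in epididymal fat. Of 6 mesothelial markers tested 4 passed, all higher, and all 8 pancreatic acinar markers were lower. None of the fibroblast, mural, lymphatic, adipocyte or macrophage markers was at 0 in all 3 libraries of a group. The part of any of these cells in the collagen differences was not tested. In bulk samples, fewer cells of a type and less RNA per cell cannot be told apart.

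Replicate C on chow was numbered 87 in both tissues, and some differences were much smaller in that pair. In the libraries numbered 50 and 51 the log2 change was 5.05 for Col23a1, 4.15 for Col4a5, 3.21 for Col4a4 and 3.41 for Col1a2. In the pair numbered 87 the same genes gave 0.00, -0.19, 0.52 and 0.44. By contrast Col3a1 gave 3.01 and 2.63, Col13a1 -3.30 and -3.34, and Col15a1 -2.49 and -2.95. The last 3 differences were thus of like size in both ranges of numbers.

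Of the 22 genes that passed on chow, 14 also passed under every alternative that tested them, among them Col3a1, Col1a2, Col4a1, Col13a1, Col15a1, Col18a1, Col6a1 and Col6a2. The call of Col4a2 was lost without any 1 library other than mesentery replicate C (limma adjusted p 0.0754 to 0.125) and with edgeR (adjusted p 0.0900). Col4a4, Col4a5 and Col23a1 lost theirs without replicate A or B of either tissue, at limma adjusted p of 0.0652 to 0.132, 0.108 to 0.158 and 0.0793 to 0.128 in that order. Col4a6 did not pass without mesentery replicate A or C or epididymal replicate A or B (0.0641 to 0.151). Col1a1 did not pass without mesentery replicate B or epididymal replicate A or B (0.0506 to 0.0908), nor Col28a1 without epididymal replicate A (0.0644). With the replicate block Col4a5 did not pass (0.0581). With edgeR, Col23a1 (adjusted p 0.153), Col4a5 (0.111) and Col4a6 (0.0554) did not pass either, nor did Col23a1 with DESeq2 (adjusted p 0.0754). With only the groups compared, limma did not call Col4a2 (adjusted p 0.0579), Col4a5 (0.105), Col4a6 (0.054), Col6a5 (0.060) or Col23a1 (0.084).

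On the high fat diet the 2 beds differed in 14 of the 40 collagen genes, 12 higher and 2 lower in epididymal fat. The fibrillar chains of types I, III and V and 4 type VI chains were again higher, and Col13a1 and Col15a1 again lower. All 14 had passed in the same direction on chow, in other libraries. The share of all genes that passed on both diets was not counted, so nothing is read from this about the collagens. Both tests also shared 1 spread over the 12 libraries and were not independent. Among all genes tested 8.34% passed, 4.91% higher and 3.43% lower. The groups did not overlap for 21 of the 40, 17 higher and 4 lower, against 26.4% of all genes (15.1% higher and 11.2% lower). When all libraries were scaled to the same total, 10 collagen genes were higher and 4 lower, Col4a1 and Col4a2 joining the lower ones. That scaling changed the share of higher genes among all that passed from 58.9% to 35.3%. The median log2 change was 1.35 over the collagen genes and 0.06 over all genes tested.

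The fibrillar genes of types I and III lay far apart between the tissues on this diet. Col3a1 had 209, 162 and 398 normalized counts in mesentery and 7560.2, 6989.8 and 8181 in epididymal fat (log2 change 4.98, SE 0.31, adjusted p 7.76e-07), a difference of 31.6 times. Col1a1 had 65.5, 16.6 and 63.2 and 753, 619 and 817 (log2 change 4.10, SE 0.53, adjusted p 3.50e-04). Col1a2 had 154, 76.2 and 211 and 2071, 2340.4 and 2149.5 (log2 change 3.9997, SE 0.49, adjusted p 2.44e-04). For these 3 genes the epididymal libraries lay close together and far above every mesentery library. Among type VI genes, Col6a1 differed by 4.39 (SE 0.38) and Col6a2 by 4.91 (SE 0.82) on the log2 scale. Col6a1 had 45.8, 62.4 and 105 in mesentery and 1099, 1730.1 and 1507 in epididymal fat. Col6a2 had 122, 5.54 and 87.9 and 1003, 1470.0 and 1306, its mesentery replicate B resting on few reads.

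The genes of higher mesentery level kept their order. Col13a1 had 2564, 2977 and 1599.7 normalized counts in mesentery and 105, 195 and 169.9 in epididymal fat (log2 change -3.92, SE 0.47, adjusted p 2.27e-04). Col15a1 had 314, 477 and 359 and 97.8, 139 and 113 (log2 change -1.70, SE 0.31, adjusted p 0.00446). Neither overlapped. Of the 8 genes that passed on chow and not here, 6 still had groups without overlap, Col23a1, Col28a1 and Col4a5 among them, and Col4a4 and Col4a6 overlapped. The other 3 without overlap were Col18a1 (log2 change 1.44, adjusted p 0.0583), Col4a1 (-0.84, 0.0665) and Col4a2 (-0.86, 0.11). Col4a1 had 8300.3, 9578 and 8749 in mesentery and 3551, 6678 and 5083 in epididymal fat. Col4a2 had 5539, 7623 and 6686 and 2468, 5096 and 3731. Relative to the summed endothelial markers Col4a1 was 0.0693, 0.0724 and 0.07735 in mesentery and 0.07605, 0.0747 and 0.0805 in epididymal fat, with overlap. On chow that ratio did not overlap, at 0.0693, 0.0767 and 0.0636 in mesentery and 0.0508, 0.0464 and 0.0419 in epididymal fat. Not passing here does not show that the tissue difference changed with diet, and no collagen gene passed the test of that change. Of the 14 that passed, Col6a5 did not pass when any 1 of the 6 libraries was left out (limma adjusted p 0.0646 to 0.156), nor Col5a3 without replicate B or C of either tissue (0.0686 to 0.0897). Col6a5 also lost its call with edgeR (adjusted p 0.0570). With all libraries scaled to the same total, neither Col6a5 (limma adjusted p 0.0825) nor Col5a3 (0.0893) passed. Col18a1 passed without mesentery replicate A (0.0359) and with DESeq2 (0.0241). Col4a1 passed without epididymal replicate B (0.0371), with the replicate block (0.0326), with the number range as a covariate (0.00971) and with DESeq2 (0.0142). Col4a2 passed with the replicate block (0.0289), with the number range (0.0108) and with DESeq2 (0.0494).

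Fibroblast markers differed on this diet as well, with 9 of 10 higher in epididymal fat and sums of 4674 to 10438 in mesentery and 43263 to 59712 in epididymal fat. Macrophage markers summed to 1552 to 7674 and 38958 to 100506. Of 12 endothelial markers 8 were lower and 1 higher in epididymal fat, with sums of 113108 to 132320 in mesentery and 46699 to 89341 in epididymal fat, beside the lower Col13a1 and Col15a1. Of 10 mural markers 4 were higher. Their part in the collagen differences was not tested.

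**Figure D4:**
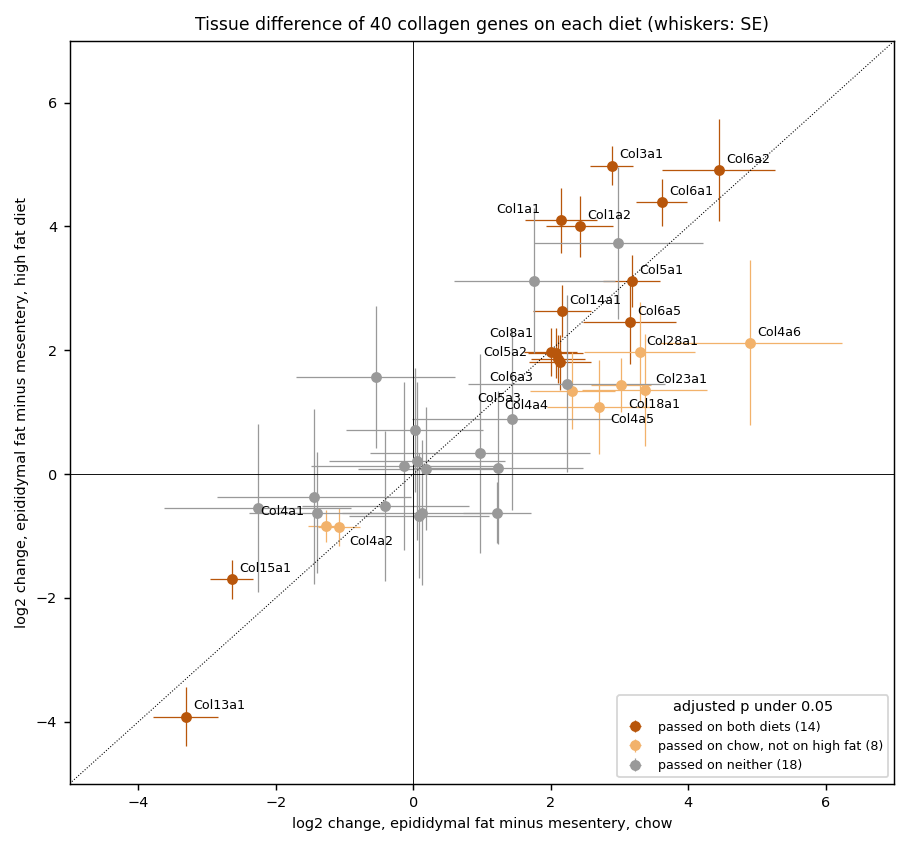
Log2 change (epididymal fat minus mesentery) of the 40 collagen genes tested, on chow (horizontal axis) and on the high fat diet (vertical axis), with SE as whiskers and the line of equality dotted. The 14 genes that passed on both diets lie at the upper right and the lower left, and Col3a1, Col1a1 and Col1a2 lie above the line.

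In epididymal fat, 1 collagen gene passed for the diet: Col3a1 was higher on the high fat diet. Among all genes tested 0.549% passed, 0.418% higher and 0.130% lower. Col3a1 had 1541, 1654 and 929 normalized counts on chow and 7560.2, 6989.8 and 8181 on the high fat diet (log2 change 2.50, SE 0.31, adjusted p 0.00375). That is 5.67 times more, and the groups lay far apart. The difference was 2.24 on the log2 scale in the libraries numbered 50 to 53 and 3.02 between the libraries numbered 87 and 88. With the first set alone, 2 libraries a group, its adjusted p was 0.0680. The median log2 change was 0.21 over the collagen genes and 0.10 over all genes tested.

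Other fibrillar genes pointed the same way without passing. Col1a1 had 335, 246 and 108 on chow and 753, 619 and 817 on the high fat diet (log2 change 1.80, SE 0.53, adjusted p 0.207). Col1a2 had 1669, 1157 and 533 and 2071, 2340.4 and 2149.5 (log2 change 1.11, SE 0.49, adjusted p 0.651). Col5a1 had 312, 346 and 305 and 703, 561 and 546 (log2 change 0.90, SE 0.42, adjusted p 0.715). The groups of these 3 genes did not overlap. In all, 10 of the 40 collagen genes had groups without overlap, 6 higher and 4 lower, against 13.5% of all genes tested (6.93% higher and 6.57% lower). Among those lower on the high fat diet were Col4a3, with 525, 159.9 and 166 and 110.2, 49.5 and 49.5 (log2 change -1.88, SE 0.50, adjusted p 0.158), and Col4a4, with 705, 364 and 248 and 168, 75.2 and 84.2 (log2 change -1.96, SE 0.62, adjusted p 0.272). For both, epididymal chow replicate A was the highest library. DESeq2 on the recovered reads called Col3a1, Col1a1 and Col4a3, and edgeR called Col3a1.

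Col4a1 and Col4a2 did not pass in this comparison. Col4a1 had 4608, 4789 and 3564 on chow and 3551, 6678 and 5083 on the high fat diet (log2 change 0.21), and Col4a2 had 3749.8, 3705 and 2737 and 2468, 5096 and 3731 (log2 change 0.10). The groups overlapped for both. Col15a1 had 189.5, 103 and 78.6 and 97.8, 139 and 113, and Col18a1 had 755, 559.5 and 336 and 366, 477 and 442, again with overlap. The type VI genes also overlapped for Col6a1, with 1585, 1090.3 and 702 and 1099, 1730.1 and 1507.

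Col3a1 was set beside other transcripts of the same libraries, in ratios chosen after the values were seen. The ratio of Col3a1 to Col1a2 was 0.923, 1.43 and 1.74 on chow and 3.65, 2.99 and 3.81 on the high fat diet. Its ratio to the 10 summed fibroblast markers was 0.0264, 0.0407 and 0.0489 on chow and 0.175, 0.117 and 0.142 on the high fat diet. Dcn, the gene of decorin, made up 80.9% to 86.7% of that sum on chow and 63.6% to 72.9% on the high fat diet, so this single gene carried most of the sum. Against Lum, the gene of lumican, the ratio of Col3a1 was 0.781, 1.18 and 0.956 on chow. On the high fat diet it was 1.17, 1.03 and 1.10, and these groups overlapped. The groups of the ratios to Col1a2 and to the fibroblast sum did not overlap, and the exact permutation test over 3 against 3 libraries gave p = 0.1 for each, the smallest it can give (two-sided). Relative to the 12 summed endothelial markers, Col4a1 was 0.0508, 0.0464 and 0.0419 on chow and 0.0761, 0.0747 and 0.0805 on the high fat diet (exact permutation p = 0.1).

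Cell type markers moved with the diet here too. Of 10 fibroblast markers Lum (log2 change 2.30, SE 0.37, adjusted p 0.0135) and Mfap5 (log2 change 2.42, SE 0.39, adjusted p 0.0145) passed, both higher, with sums of 18992 to 58449 on chow and 43263 to 59712 on the high fat diet. The fibroblast marker Tcf21 had 2255, 914 and 429 on chow and 169.8, 377 and 372 on the high fat diet, without overlap and without passing. Adipocyte markers summed to 64204 to 86838 on chow and 4339 to 14720 on the high fat diet, and 3 of 8 passed, Adipoq, Cfd and Retn, all lower. Lymphatic endothelial markers summed to 22667 to 37637 and 11831 to 18154, and 0 of 7 passed with limma (1 at an unadjusted p under 0.05). The macrophage markers summed to 2780 to 19644 on chow and 38958 to 100506 on the high fat diet, although none of the 10 passed singly. Sums of endothelial markers were 85102 to 103210 on chow and 46699 to 89341 on the high fat diet, and of mural markers 14230 to 24017 and 7031 to 13271. The ratio of Col3a1 to the fibroblast sum is given above, and the part of the other cells in its change was not tested.

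**Figure D5:**
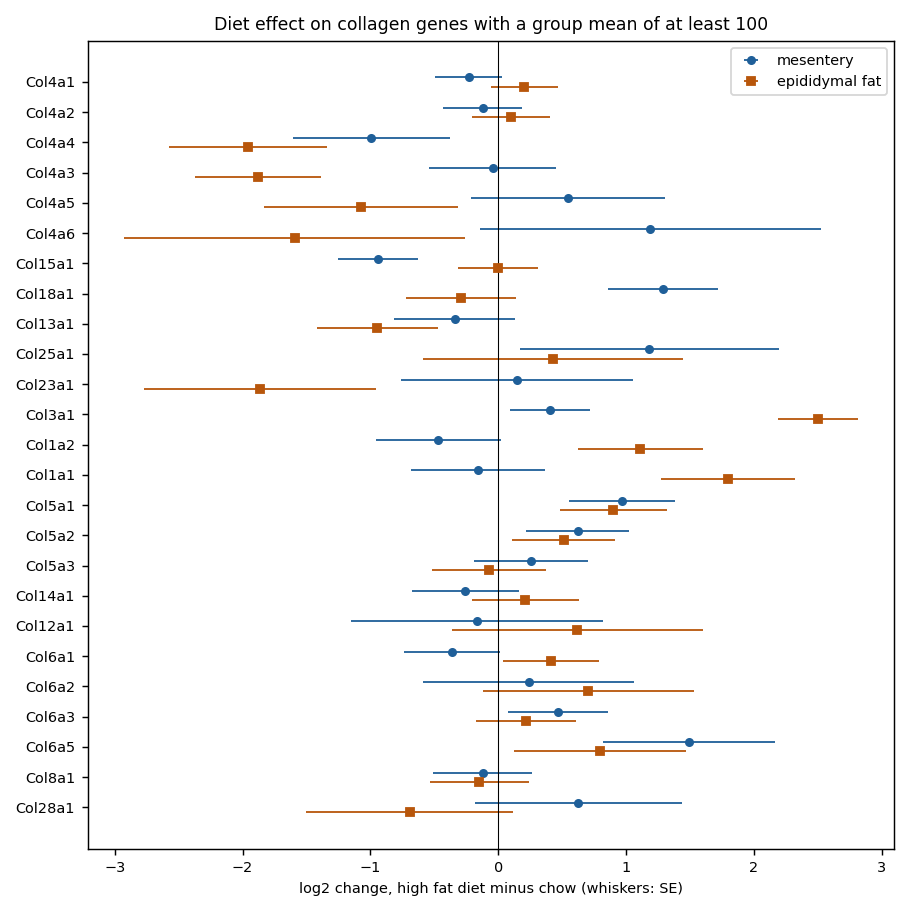
Log2 change (high fat diet minus chow, horizontal axis, SE as whiskers) of the 25 collagen genes with a group mean of at least 100, in mesentery (circles) and epididymal fat (squares). Col3a1 in epididymal fat, at 2.50, is the 1 value that passed the test.

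In mesentery, no collagen gene passed for the diet. The unadjusted p (limma) was under 0.05 for 4 of the 40 and for 1367 of the 22238 genes tested. Of the collagen genes, edgeR and DESeq2 called 0. At the adjusted threshold 0.0135% of all genes tested passed, 0.00899% higher and 0.00450% lower. The median log2 change was 0.25 over the collagen genes and -0.0023 over all genes tested, and with all libraries scaled to the same total these were 0.38 and 0.13. The collagen median was -0.14 with edgeR and -0.17 with DESeq2, so it has no settled sign. The multiplexins had the lowest p. Col15a1 had 722, 863 and 614 normalized counts on chow and 314, 477 and 359 on the high fat diet (log2 change -0.94, SE 0.31, adjusted p 0.639). Col18a1 had 34.2, 69.0 and 107 and 265, 115 and 125 (log2 change 1.29, SE 0.43, adjusted p 0.65). These were the 2 collagen genes of the 40 whose groups did not overlap, 1 higher and 1 lower, against 9.61% of all genes tested (4.47% higher and 5.14% lower). The ratio of Col15a1 to Col18a1 was 21.1, 12.5 and 5.74 on chow and 1.19, 4.14 and 2.86 on the high fat diet. This ratio was chosen after its values were seen. With 1 gene wholly lower and the other wholly higher, its groups could not overlap. Its exact permutation p of 0.1, the smallest possible (two-sided), was thus fixed by the choice and adds no support.

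Next by p stood Col5a1, with 30.7, 27.8 and 47.9 on chow and 76.7, 31.9 and 129 on the high fat diet (log2 change 0.97, SE 0.42, adjusted p 0.754), where the groups overlapped. Col5a2, with 63.8, 37.6 and 166 and 106, 116 and 121, overlapped too (log2 change 0.62, SE 0.41, adjusted p 0.912). Col3a1 had 167, 232 and 149 and 209, 162 and 398 (log2 change 0.41, SE 0.31), with overlap. Col4a1 had 11342, 13144 and 7531 and 8300.3, 9578 and 8749, and Col13a1 had 3508, 4006 and 1757 and 2564, 2977 and 1599.7, both with overlap. The type I genes were low in mesentery on either diet, Col1a1 at 67.2, 43.0 and 33.8 and 65.5, 16.6 and 63.2, and Col1a2 at 115, 147 and 393 and 154, 76.2 and 211.

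The difference between the diet effects of the 2 beds was tested directly, and no collagen gene passed. The unadjusted p (limma) was under 0.05 for 5 of the 40 collagen genes and for 1047 of the 22238 genes tested. Of the collagen genes, edgeR called 0 and DESeq2 called Col3a1 (adjusted p 0.00603). Among all genes tested 0.00450% passed, which is 1 gene. Col3a1 had the lowest p, its diet effect being 2.50 in epididymal fat and 0.41 in mesentery (difference 2.10, SE 0.44, adjusted p 0.265). Col1a1 (1.96, adjusted p 0.915) and Col1a2 (1.58, adjusted p 1) differed in the same direction without passing. Col18a1 (-1.58, adjusted p 0.915) and Col4a3 (-1.84, adjusted p 0.915) differed in the other direction. The median difference was -0.08 over the collagen genes and 0.11 over all genes tested, and these were -0.34 and -0.16 with equal totals. With edgeR they were 0.09 and 0.10 and with DESeq2 0.14 and 0.13, so the sign of the collagen median depended on the test and on the scaling.

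Some collagen genes of low level were highest by a wide margin in the libraries numbered 87 or 88 in 3 of the 4 groups. Col25a1, a brain-enriched transmembrane collagen, had 39.9, 19.7 and 294 normalized counts in mesentery on chow, 48.6, 21.7 and 261 in epididymal fat on chow and 284, 53.7 and 45.3 there on the high fat diet. The highest value of each of these groups came from the library numbered 87 or 88. In mesentery on the high fat diet it had 156, 134 and 136, where replicate A, numbered 88, was again the highest but close to the others. Col6a4 had 9.11, 3.58 and 97.1, 1.57, 0.869 and 46.0 and 63.0, 9.08 and 7.79 in the same 3 groups, with the same libraries highest. Its share of the collagen reads in mesentery on the high fat diet was 0.166%, 0.0677% and 0.108%, again highest in replicate A. In a fit with the number range as a term, 3 of the 40 collagen genes passed for it, Col25a1 and Col6a4 higher and the abundant Col4a2 lower in 87 and 88, against 4.60% of all genes tested (3.88% higher and 0.719% lower), a count from which nothing is read about the collagens. Col12a1, with 16.4, 18.2 and 166 and 220.3, 24.8 and 34.7 in the epididymal groups, and Col19a1, with 1.57, 5.21 and 128 and 114, 13.2 and 9.20, showed the same order without passing. In mesentery on the high fat diet the library numbered 88 was instead the lowest for both, with 58.9, 87.3 and 139 for Col12a1 and 19.6, 37.4 and 64.2 for Col19a1. The nose receptor background was also highest in those epididymal libraries, and in mesentery on chow in the library numbered 87, at 3065 CPM. In mesentery on the high fat diet it was 592, 573 and 1918 CPM. Replicate C, the highest there, also held the highest Col12a1 and Col19a1 values of that group, though not the highest Col25a1 or Col6a4 value. The part of this background in these values was not tested.

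Genes that make, process and bind collagen were examined as 4 lists, to be read against the 12.8% of all genes tested that passed on chow and the 8.34% on the high fat diet. Of 21 genes for folding and modification inside the cell, 5 were higher and 1 lower in epididymal fat on chow, while on the high fat diet 1 was higher and 1 lower, a share close to that of all genes. On chow the higher ones included P3h3, of the collagen prolyl hydroxylase family (log2 change 3.22), the transcription factor gene Creb3l1 (1.66) and Tmem38b (1.40), a channel of the endoplasmic reticulum. Colgalt1 was higher on the high fat diet (0.82). Colgalt2, which adds galactose to collagen hydroxylysine, was lower on both diets (log2 change -2.58 and -3.22). Of 13 genes for propeptide removal and cross-linking, 6 were higher and 1 lower on chow, and 5 higher on the high fat diet. The cross-linking enzyme Lox (2.80 and 2.52) and the N-propeptidase Adamts2 (2.09 and 3.14) were higher on both diets, in that order of diets. Pcolce, an enhancer of Bmp1, was higher on both as well (2.14 and 2.42), as was the cross-linking enzyme Loxl1 (2.73 and 4.33). Bmp1, which cuts the C-propeptide of fibrillar collagens, was lower on chow (log2 change -1.13).

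Of 15 collagen-binding matrix genes, 9 were higher and 3 lower in epididymal fat on chow, while on the high fat diet 10 were higher and 2 lower. Those higher included the fibril-binding proteoglycans Aspn (5.62 and 2.76), Fmod (4.34 and 3.28) and Lum (3.07 and 6.07), and Postn, periostin (4.38 and 4.45). Those lower were basement membrane or vessel wall proteins: Nid2 (-1.26 and -0.96) and Fbln2 (-1.67 and -1.21) on both diets and Hspg2, perlecan, on chow (-1.09). Of 10 collagen receptors, the receptor kinase Ddr2 (2.19 and 2.34) and Lair1, an inhibitory receptor of leukocytes (3.79 and 4.67), were higher on both diets. The endocytic receptor Mrc2 was higher on the high fat diet (2.63), and the integrin Itga1 was lower on both (-1.26 and -1.06). Lair1 on chow and Mrc2 had group means under 100 and were named after their values were seen. For the diet contrasts Lum in epididymal fat was the single gene of the 4 lists that passed. The fibroblast and macrophage marker sums given above moved with these genes too. Lum and Dcn, however, belong to both the matrix list and the fibroblast markers, and Dcn made up most of the fibroblast sum. That sum is thus not independent of the matrix list.

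Promoter sequence was available for 34 of the 42 genes from RefSeq (GRCm38.p6, whereas the reads were counted on mm39). The 250 bases before the start of Col3a1, which differed by tissue and by diet, and of Col8a1, which differed by tissue alone among these tests, are printed because no annotated exon or other gene reaches into either window. Capitals mark matches on either strand to the TATA box TATAAA, the pentamer CCAAT of the CCAAT box, the GC box GGGCGG or the E-box CACGTG, and no matches overlap each other here.
Col3a1, chr1:45311288-45311537, plus strand: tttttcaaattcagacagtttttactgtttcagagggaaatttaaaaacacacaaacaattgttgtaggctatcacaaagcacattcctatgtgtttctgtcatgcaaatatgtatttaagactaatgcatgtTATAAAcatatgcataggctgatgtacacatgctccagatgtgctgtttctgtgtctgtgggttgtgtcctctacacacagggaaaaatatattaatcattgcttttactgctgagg
Col8a1, chr16:57754738-57754987, minus strand: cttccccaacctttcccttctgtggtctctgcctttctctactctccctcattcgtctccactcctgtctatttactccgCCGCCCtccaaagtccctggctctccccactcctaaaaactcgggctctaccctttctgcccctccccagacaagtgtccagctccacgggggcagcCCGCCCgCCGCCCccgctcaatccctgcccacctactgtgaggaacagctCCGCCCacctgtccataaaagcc
The Col3a1 window held a TATAAA and the Col8a1 window matches to the GC box. The letters TATAAA were found in 4 of the 34 collagen windows and in 13.0% of all 27025 windows of that length, and GGGCGG in 21 of 34 and 32.9%. CCAAT was found in 12 of 34 and 34.5%, and CACGTG in 0 of 34 and 6.05%. A match describes these letters and is not a measured binding site.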

How the data were processed

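The deposited table holds normalized counts, a signal made by the authors. The submitters' processing notes name STAR 2.7.9a, featureCounts of the Subread package, DESeq2 1.34.0 and the build mm39. Their order, settings, annotation and use of strand are not given in the sources used here. Every value was a whole number of reads times 1 step per library (100% of values, tolerance 0.001). The reciprocals of the steps equalled median-of-ratios size factors, and no gene had under 51 reads in total. Genes with a mean of at least 10 (22238) were tested with limma 3.58.1 (R 4.3.3; lmFit, eBayes with trend) on log2(normalized count + 1), with 1 mean per group and all 12 libraries sharing 1 spread. The Benjamini-Hochberg adjustment ran over all genes tested, at a threshold of 0.05. No 2 libraries were identical.

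As alternatives, edgeR 4.0.16 and DESeq2 1.42.0 were run on the recovered reads. For diet in epididymal fat limma called 122 genes, edgeR 29 and DESeq2 563, and leaving out 1 library gave 23 to 168. For tissue on chow they called 2843, 1984 and 3927, and for diet in mesentery 3, 1 and 150. Pseudocounts, filters, scaling, the replicate block, the number range and the libraries entered were also varied. Exon lengths came from GENCODE M21 (GRCm38), so values per kilobase rest on another annotation than the counts. Members and lists were chosen with earlier results of these data known. All collagen genes could be named. Values per library were given for Col1a1, Col1a2, Col3a1, Col4a1, Col4a2, Col15a1, Col18a1 and the called genes of largest change, up to 4 each way whose higher group had a mean of 100 or more. Where fewer than 3 passed, the 3 lowest p-values with that mean were given. Values of Col4a4, Col5a1, Col6a4, Col8a1, Col12a1, Col19a1 and Col25a1 were added outside this rule after they were seen. Pathway genes were named up to 3 each way by the same rule. Intervals of counting error were not used, and 3 reads correspond to 2.12 to 4.22 normalized counts.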

Additional observations from a re-analysis of the deposited data

How the results depend on the processing

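The counts of collagen genes that passed kept within 1.5 times of the reported ones under the alternatives run, except in 2 diet tests. For diet in epididymal fat DESeq2 gave 3 genes (Col3a1, Col1a1 and Col4a3) and the libraries numbered 50 to 53 alone gave 0, with the reported 1 under the others. For the difference between diet effects DESeq2 gave 1 gene (Col3a1) and the others 0. For tissue on chow the count was 18 with edgeR, 21 with DESeq2, 17 with only the groups compared and 26 with libraries 50 to 53 alone, and leaving out 1 library gave 15 to 22. For tissue on the high fat diet it was 13, 17, 15 and 17, and leaving out 1 library gave 12 to 14. Leaving out 1 library gave 1 throughout for diet in epididymal fat and 0 throughout for diet in mesentery and for the difference. Of the 22 genes called on chow 14 passed under each alternative that tested them, and Col1a1, Col4a2, Col4a4, Col4a5, Col4a6, Col6a5, Col23a1 and Col28a1 did not. On the high fat diet 12 of 14 did, and Col5a3 and Col6a5 did not. The cause of each change was not tested.

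With a replicate block (letter or library number) the counts were 21 on chow, 16 on the high fat diet, 1 for diet in epididymal fat, 0 for diet in mesentery and 0 for the difference. Same-numbered libraries did not deviate together throughout: the correlations of deviations were 0.03, 0.53 and 0.58 on chow and -0.15, 0.15 and -0.11 on the high fat diet, so the numbers were not taken as pairing.

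The values that changed sign never passed. For diet in mesentery, Col1a1 was 0.0394 with edgeR and 0.0205 with DESeq2, and leaving out 1 library gave -0.4845 to 0.4727. Leaving out 1 library gave -0.8215 to 0.0602 for Col1a2 and -0.4394 to 0.1196 for Col4a2, which was 0.0143 with equal totals. For diet in epididymal fat, leaving out 1 library gave -0.2737 to 0.3555 for Col15a1, -0.0122 to 0.4432 for Col4a1 and -0.1482 to 0.3748 for Col4a2, which was -0.0401 with equal totals. The difference of diet effects for Col4a2 was -0.0544 with equal totals and -0.0261 to 0.5405 when 1 library was left out. Genes of few reads, such as Col9a2 and Col11a2, are too low for these comparisons.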

Other observations

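Some genes with a collagen-like domain fall outside the symbol rule, and 8 of them were examined after the data were seen. Emilin1, an elastic fibre protein of vessel walls, was higher in epididymal fat on chow (log2 change 3.02, limma adjusted p 0.000343) and on the high fat diet (1.84, 0.0141). Scara3 and Colec12, a scavenger receptor and a collectin, were higher on chow (3.48 and 1.50, adjusted p 0.00107 and 0.0359). On the high fat diet Colec11 (4.28, 0.0381) and the macrophage scavenger receptor Msr1 (3.98, 0.0350) were higher in epididymal fat, and Emid1 was lower (-2.20, 0.00658). None of the 8 passed for diet in either tissue.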
